A study of Mus musculus with 24 samples.

Results

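Messenger RNA of 7 genes encoding heat shock chaperones, Hspa1a, Hspa1b, Hspa8, Hspa5, Dnajb1, Hsph1 and Hsp90aa1, was followed in cultured mouse neurons on 24 arrays. The members are 7 of the 18194 genes on the array, and each was read by the probe set with the highest mean among those annotated to it, with the remaining 13 of their 20 probe sets as a check. All 7 were among the 12378 genes tested, since their probe sets lay above the array median on at least 2 arrays. For 6 genes this held on all 24 arrays, and for Hspa1a on 7 of 24.

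The neurons were taken at embryonic day 14 from C57Bl/6 mice. MGE cultures derive from the ganglionic eminence in which many cortical inhibitory neurons are born, and CTX cultures derive from the cortex. Donors were Npas4 knockout (KO) or wild-type (WT) littermates. Npas4 is a transcription factor that neuronal activity switches on, and the comparison of genotypes addresses what its loss does to the response to depolarization. All cultures, the 0 h groups included, were silenced overnight with TTX, a sodium channel blocker, and AP-5, an NMDA receptor blocker. They were then depolarized in 55 mM KCl for 0, 1 or 6 h. The 12 groups are thus MGE KO, MGE WT, CTX KO and CTX WT at 0, 1 and 6 h, with 2 arrays, called repeat 1 and repeat 2, in each. The labels do not say that the repeats were separate cultures, so p-values measure only the spread between these samples, which may be technical.

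Chaperones bind unfolded stretches of other proteins and help them fold, refold or be degraded. The Hsp70 proteins work in an ATP-driven cycle in which an Hsp40 partner delivers the client and starts ATP hydrolysis, and a nucleotide exchange factor of the Hsp110 family opens the complex again. Hsp90 takes over clients such as kinases and steroid receptors. In stressed cells the transcription factor Hsf1 binds heat shock elements and switches on the inducible members, while the unfolded protein response controls the chaperones of the endoplasmic reticulum (ER). Neurons are known for a high basal supply of the constitutive Hsp70, encoded by Hspa8, which also strips clathrin from synaptic vesicles.

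Upstream sequence is shown for the members found in the RefSeq promoter table (GRCm38.p6), 5 of 7, so that the letters upstream of the members can be seen beside their values. Hspa8 and Hsp90aa1 are named only. Each line gives the 150 bases before the annotated start, 5′ to 3′ on the gene's strand, with 1 motif match in capitals. In Hspa1a, Hspa1b and Hsph1 the capitals mark a heat shock element, in Hspa5 an ER stress response element, and in Dnajb1 the core of a cyclic AMP response element read on the opposite strand.
Hspa1a (chr17:34972157-34972306, minus strand): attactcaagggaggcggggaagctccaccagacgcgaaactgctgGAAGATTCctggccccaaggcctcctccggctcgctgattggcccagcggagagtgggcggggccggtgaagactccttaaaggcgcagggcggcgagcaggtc
Hspa1b (chr17:34959239-34959388, minus strand): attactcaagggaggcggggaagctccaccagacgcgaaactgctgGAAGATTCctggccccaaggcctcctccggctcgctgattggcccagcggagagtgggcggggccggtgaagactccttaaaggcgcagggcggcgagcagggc
Hsph1 (chr5:149636337-149636486, minus strand): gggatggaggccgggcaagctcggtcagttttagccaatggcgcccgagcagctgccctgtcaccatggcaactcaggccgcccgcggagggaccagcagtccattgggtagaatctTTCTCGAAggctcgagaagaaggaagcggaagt
Hspa5 (chr2:34771940-34772089, plus strand): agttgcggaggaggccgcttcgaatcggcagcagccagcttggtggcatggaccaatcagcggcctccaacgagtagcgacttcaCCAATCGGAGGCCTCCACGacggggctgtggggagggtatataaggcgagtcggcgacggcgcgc
Dnajb1 (chr8:83608025-83608174, plus strand): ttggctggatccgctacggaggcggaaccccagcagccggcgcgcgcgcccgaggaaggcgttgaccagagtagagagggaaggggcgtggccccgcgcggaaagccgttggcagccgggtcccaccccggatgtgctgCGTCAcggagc

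The search covered both strands of the 250 bases before each annotated start. The heat shock element was searched as GAANNTTC or TTCNNGAA, and 1 of these forms was present in 12.84% of 32851 promoter windows. It began 104 bases upstream in both Hspa1a and Hspa1b and 33 bases upstream of the nearer of the 2 annotated starts of Hsph1. The Dnajb1 and Hspa5 windows held no match to these letters. The ER stress response element, searched as CCAAT, 9 bases of any kind and CCACG, began 65 bases upstream in Hspa5 and was present in 0.113% of windows. The cyclic AMP response element core TGACG was in 17.765% of windows. It began 11 bases upstream of 1 of the 2 annotated starts of Dnajb1, as CGTCA, with no match before the other start. In Hspa5 it began 157 bases upstream, outside the stretch shown. The full element TGACGTCA, which contains the core, was in 1.546% of windows and in no member's window. A match is a description of letters, not a known binding site. Over the 250 upstream bases Hspa1a and Hspa1b were identical at 247 positions (98.8%). They are neighbours on chromosome 17 with 0 annotated genes between them and encode nearly the same protein, so their probe sets may read each other's transcript.

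Depolarization moved these genes in a way that varied by gene, by time and by culture. In CTX cultures of both genotypes Dnajb1 rose within 1 h, and Hspa1b and Hspa5 rose by 6 h. In MGE cultures no member passed the test for a rise at either time, though Dnajb1 was higher at 1 h than at 0 h on every array of each genotype, and Hspa1b fell by 6 h in KO, a call lost without any 1 of its 4 arrays. No member was called between KO and WT in any condition. The main probe sets of Hspa8, Hsph1 and Hsp90aa1 moved by at most 0.24 on the log2 scale in any culture. All values below are log2 intensities, and a difference of 1 is a doubling.

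**Figure D1:**
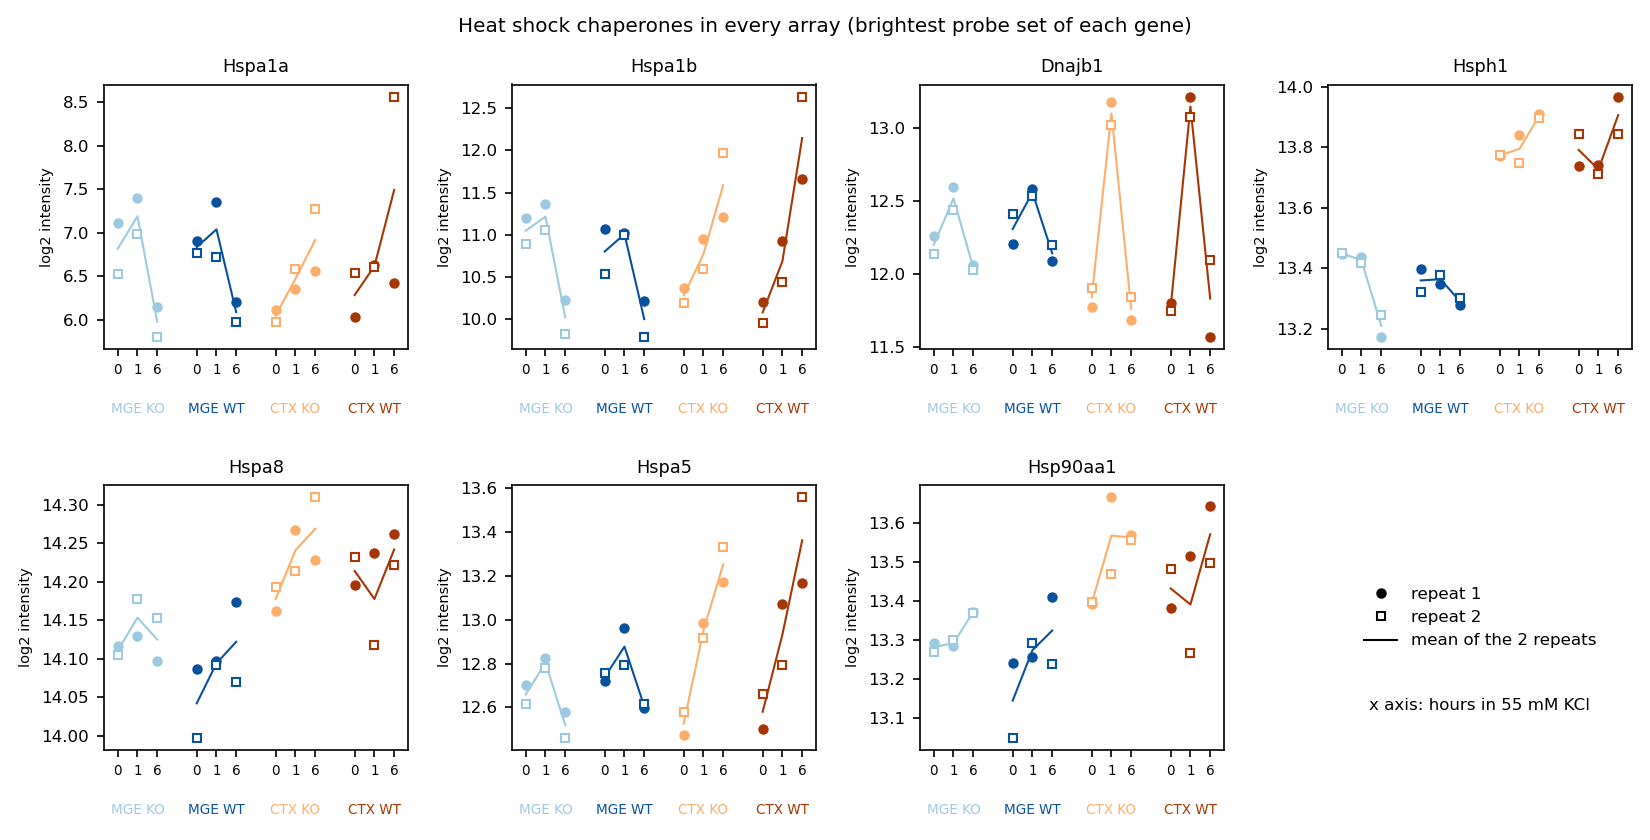
Log2 intensity (y axis, scaled per panel) of the brightest probe set of each of the 7 genes on all 24 arrays, by hours in KCl (x axis) within MGE KO, MGE WT, CTX KO and CTX WT. Filled circles are repeat 1, open squares repeat 2, and lines join the means of the 2 repeats. Dnajb1 peaks at 1 h in CTX, with all 4 arrays between 13.02 and 13.22, while Hspa1b and Hspa5 are highest in CTX at 6 h.

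Hspa1b and Hspa1a encode the inducible cytosolic Hsp70. On its main probe set Hspa1b had 11.21 and 11.97 in CTX KO at 6 h, against 10.37 and 10.19 at 0 h. In CTX WT it had 11.65 and 12.64 at 6 h, against 10.20 and 9.96 at 0 h. Every CTX array at 6 h lay above every CTX array at 0 h. At 1 h the values were in between, 10.95 and 10.59 in CTX KO and 10.93 and 10.44 in CTX WT. The rise at 6 h was 1.31 ± 0.32 in CTX KO (SE, limma adjusted p = 0.0051) and 2.07 ± 0.32 in CTX WT (adjusted p = 0.00017), which are 2.47-fold and 4.19-fold. The CTX KO call rested on 1 array, since without CTX KO 6 h repeat 2 the change was 0.93 with an adjusted p of 0.077. In CTX WT it was called whichever array was left out, with 1.58 to 2.56.

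The same gene took the opposite course in MGE cultures. There it had 10.22 and 9.82 in MGE KO at 6 h, against 11.20 and 10.90 at 0 h, and 10.21 and 9.79 in MGE WT at 6 h, against 11.07 and 10.53 at 0 h. In both genotypes the arrays at 6 h lay below those at 0 h without overlap. The change was -1.03 ± 0.32 in MGE KO (adjusted p = 0.040) and -0.80 ± 0.32 in MGE WT (adjusted p = 0.080). The MGE KO call was lost without any 1 of its 4 arrays, with changes of -1.23 to -0.83 and adjusted p of 0.076 to 0.24, and also with no filter on low genes (adjusted p = 0.051) or with cyclic loess normalization (adjusted p = 0.053). At 1 h MGE KO had 11.37 and 11.06, and MGE WT had 11.02 and 10.99.

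Ordered by group mean, Hspa1b was highest in CTX WT at 6 h (12.15 ± 0.70, SD, n = 2) and CTX KO at 6 h (11.59 ± 0.54), whose arrays overlap. The MGE groups at 0 and 1 h followed with means between 10.80 and 11.21. The lowest means were 10.00 in MGE WT at 6 h, 10.02 in MGE KO at 6 h and 10.08 in CTX WT at 0 h, within one another's spread. The other 2 Hspa1b probe sets were dimmer and were called higher at 6 h in CTX too, by 1.71 and 1.95 in CTX KO and by 2.62 and 2.77 in CTX WT. In CTX KO both of these calls were lost without CTX KO 6 h repeat 2 (1.28 and 1.44), and the first also without CTX KO 0 h repeat 2. At 0 h, however, the fainter one averaged 6.25 in CTX KO and 6.26 in CTX WT and the other 6.81 in CTX KO, below the array medians, which ran from 6.84 to 6.92. Those changes are therefore over levels not shown to be above background, and their exact size is uncertain. In MGE both lay below the array medians on all arrays, and neither bears on the fall seen there on the main probe set.

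Hspa1a, on its single probe set, had 6.56 and 7.27 in CTX KO at 6 h, against 6.11 and 5.98 at 0 h. In CTX WT it had 6.42 and 8.57 at 6 h, against 6.03 and 6.54 at 0 h. These levels lie around the array median and are not shown to be above background. In CTX WT the 2 arrays at 6 h stood far apart, and 1 of them lay within the range at 0 h. The change of 1.21 ± 0.48 in CTX WT was not called (adjusted p = 0.065), and without CTX WT 6 h repeat 1 it became 2.28 with an adjusted p of 0.00020. In MGE, Hspa1a had 6.15 and 5.80 in KO and 6.20 and 5.97 in WT at 6 h, against 7.11 and 6.52 in KO and 6.90 and 6.77 in WT at 0 h, and neither change was called.

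Repeat 2 of CTX WT at 6 h was the higher of the 2 for both inducible genes, and the repeats of that group also differed from each other in other ways. In that group 980 of 12378 genes lay over 2-fold apart between the repeats, against 116 in CTX WT at 0 h. The mean log2 level of 8 vascular marker genes was 6.02 and 7.29 in CTX WT at 6 h (repeats 1 and 2), against 6.17 and 6.88 at 0 h, and of 7 astrocyte markers 8.85 and 9.39, against 9.08 and 8.70. Pecam1, Cldn5, Kdr, Cdh5 and Flt1, defining endothelial markers, averaged below the array median in both groups. The mean of 8 progenitor markers was 8.15 and 8.08, against 7.91 and 7.46. In CTX KO at 6 h the vascular mean was 6.11 and 7.02, against 6.14 and 7.09 at 0 h, the astrocyte mean 9.08 and 8.44, against 8.98 and 8.03, and the progenitor mean 8.44 and 7.74, against 8.06 and 7.33. The vascular mean was higher in repeat 2 than in repeat 1 in every group, but its highest value on any array was the 7.29 of CTX WT at 6 h. The astrocyte mean was higher in repeat 2 than in repeat 1 in CTX WT at 6 h, and lower in every other CTX group. No vascular or astrocyte marker was called at 6 h in CTX. Of 7 tested progenitor markers 2 were called higher in CTX KO and 1 in CTX WT, and of 10 interneuron markers 3 in CTX KO and 2 in CTX WT, with median interneuron changes of 0.46 and 0.41. Of all genes 36.2% in CTX KO and 35.2% in CTX WT were called in either direction at 6 h. The part of these cells in the Hspa1b result was not tested. Without repeat 2 of CTX WT at 6 h the rise of Hspa1b in CTX WT was 1.58.

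Hspa5 encodes BiP, the Hsp70 of the ER and a sensor partner of the unfolded protein response. It had 13.17 and 13.33 in CTX KO at 6 h, against 12.47 and 12.58 at 0 h, and 13.17 and 13.56 in CTX WT at 6 h, against 12.50 and 12.66 at 0 h. No array at 6 h fell within the range at 0 h. The rise was 0.73 ± 0.13 in CTX KO (limma adjusted p = 0.00055) and 0.78 ± 0.13 in CTX WT (adjusted p = 0.00032), or 1.65-fold and 1.72-fold. Both calls held whichever array was left out, at 0.64 to 0.81 in CTX KO and 0.59 to 0.98 in CTX WT. At 1 h the values were 12.99 and 12.92 in CTX KO and 13.07 and 12.79 in CTX WT, and those changes of 0.42 and 0.35 were not called. In MGE the Hspa5 arrays stayed between 12.46 and 12.96 over all 3 times, and the changes at 6 h were -0.14 ± 0.13 in MGE KO and -0.13 ± 0.13 in MGE WT. The second probe set of the gene gave 0.73 and 0.84 at 6 h in CTX KO and CTX WT.

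Dnajb1 encodes an Hsp40 that recruits clients to Hsp70. On its main probe set it had 13.18 and 13.02 in CTX KO at 1 h, against 11.78 and 11.91 at 0 h. In CTX WT it had 13.22 and 13.08 at 1 h, against 11.80 and 11.75 at 0 h. The 4 arrays at 1 h were the 4 highest of all 24. The rise was 1.26 ± 0.14 in CTX KO (adjusted p = 0.00021) and 1.37 ± 0.14 in CTX WT (adjusted p = 9.2e-05), and both calls held without any 1 array. By 6 h the same probe set was back at 11.68 and 11.84 in CTX KO and 11.57 and 12.09 in CTX WT, overlapping the 0 h arrays. In MGE it had 12.26 and 12.14, then 12.60 and 12.44, then 12.06 and 12.03 in KO over 0, 1 and 6 h. In MGE WT the same times gave 12.20 and 12.41, then 12.58 and 12.53, then 12.09 and 12.20. The arrays at 1 h lay above those at 0 h in each MGE genotype, by 0.32 ± 0.14 in KO and 0.25 ± 0.14 in WT, and neither passed the test.

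The second Dnajb1 probe set gave the same direction at 1 h and a different result at 6 h. It had 11.94 and 11.51 in CTX KO at 1 h and 11.996 and 11.73 in CTX WT, against 9.09 and 9.18 in CTX KO and 9.28 and 9.23 in CTX WT at 0 h. At 6 h it still had 11.37 and 11.42 in CTX KO and 11.25 and 11.82 in CTX WT. The changes at 6 h were 2.26 ± 0.24 in CTX KO and 2.29 ± 0.24 in CTX WT, called whichever array was left out, where the main probe set gave -0.08 and 0.06. Whether Dnajb1 message was back at its resting level at 6 h in CTX thus depends on the probe set. Where the probe sets lie on the transcript was not analysed here. In MGE the second probe set had 10.52 and 10.18 in KO and 10.71 and 10.15 in WT at 1 h, against 9.49 and 9.07 in KO and 9.48 and 9.99 in WT at 0 h. Every array at 1 h was above those at 0 h of its genotype, by 1.07 ± 0.24 in KO (adjusted p = 0.092) and 0.69 ± 0.24 in WT (adjusted p = 0.50), and neither passed the test. At 6 h it had 10.02 and 9.83 in KO and 10.24 and 10.13 in WT, and neither change from 0 h was called.

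Hsph1, Hspa8 and Hsp90aa1 encode an Hsp110 exchange factor, the constitutive Hsp70 and the stress-responsive cytosolic Hsp90. Their main probe sets were brighter than 99.2%, 99.9% and 98.9% of all probe sets, and the Hspa8 one lay between 13.997 and 14.31 on every array, where the highest value on any array was 14.85. Hsph1 had 13.91 and 13.90 in CTX KO and 13.97 and 13.84 in CTX WT at 6 h, against 13.77 and 13.77 in CTX KO and 13.74 and 13.85 in CTX WT at 0 h. Hsp90aa1 lay between 13.05 and 13.67 over all 24 arrays. None of these 3 genes was called in any single culture on the main probe set. The second Hsp90aa1 probe set, with a mean of 13.37 beside 13.38, was called higher by limma at 6 h in CTX KO (0.25, adjusted p = 0.034). The fourth, with a mean of 7.11 near the array medians, was called at 6 h in CTX KO and CTX WT. Its changes were 0.35 and 0.43 (limma adjusted p = 0.032 and 0.011). Neither probe set was refitted with arrays left out.

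Dimmer probe sets of the same genes gave larger changes in CTX. The second Hsph1 probe set had 12.20 and 12.36 in CTX KO and 12.21 and 12.40 in CTX WT at 6 h, against 11.73 and 11.94 in CTX KO and 11.64 and 11.63 in CTX WT at 0 h. It was called higher in CTX KO (0.45 ± 0.12, adjusted p = 0.011) and CTX WT (0.67 ± 0.12, adjusted p = 0.00067), and lower in MGE KO (-0.51 ± 0.12, adjusted p = 0.011). The CTX KO call was lost without CTX KO 0 h repeat 1 or CTX KO 6 h repeat 2 (0.34 at the lowest), and the MGE KO call without any of 3 arrays. The faintest Hspa8 probe set had 9.14 and 9.52 in CTX KO and 9.02 and 10.18 in CTX WT at 6 h, against 8.15 and 7.53 in CTX KO and 7.98 and 7.77 in CTX WT at 0 h. Its rise at 6 h was 1.49 ± 0.31 in CTX KO and 1.72 ± 0.31 in CTX WT (adjusted p = 0.0017 and 0.00061), while the 3 bright Hspa8 probe sets changed by 0.02 to 0.12. At 1 h the faint probe set was also called in CTX WT, at 1.54 ± 0.31 (adjusted p = 0.028), a call lost without any 1 of 4 arrays. With the mean over all probe sets of each gene, 6 of the 7 members were called at 6 h in CTX KO and in CTX WT, against 39.7% and 38.3% of the 11598 genes tested that way. Whether the brightest probe sets were near the top of their range was not tested.

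**Figure D2:**
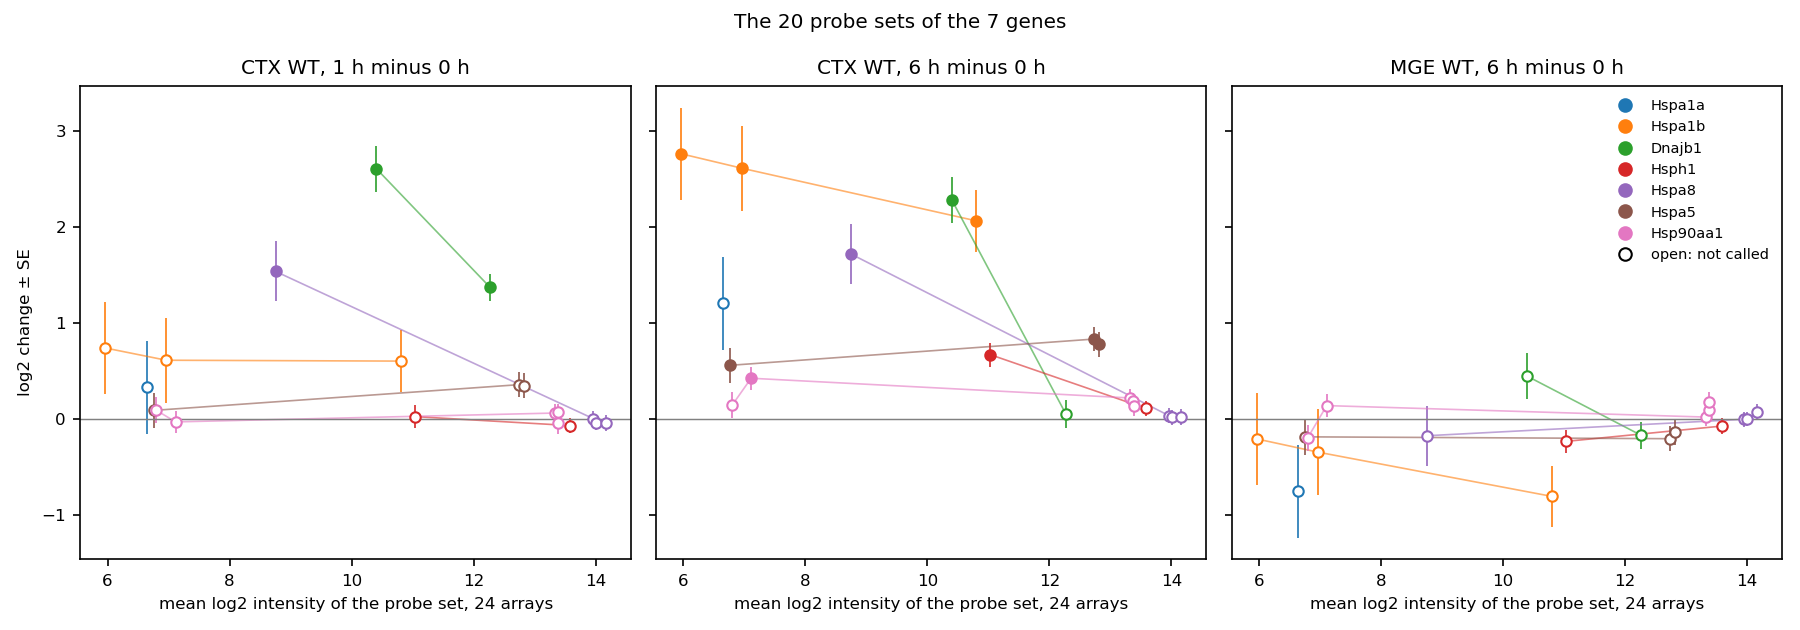
Log2 change with its SE (y axis) of the 20 probe sets of the 7 genes, against the mean log2 intensity of each probe set over 24 arrays (x axis), at 1 h and 6 h in CTX WT and at 6 h in MGE WT. Lines join probe sets of 1 gene, and filled points were called. In CTX WT at 6 h the faint Hspa8 probe set changed by 1.72 and the second Dnajb1 probe set by 2.29, while the brighter ones of both genes lie near 0.

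At 1 h 1 of 7 members was called in CTX KO, where 1.1% of all tested genes were called, and 1 of 7 in CTX WT, where 0.864% were. In MGE KO and MGE WT limma called 0 of 7 at 1 h, against 0.444% and 0.574% of all genes, with 1 member (Dnajb1) and 0 members under an unadjusted p of 0.05. At 6 h 2 of 7 were called in CTX KO and 2 of 7 in CTX WT, against 36.2% and 35.2% of all genes, so these shares were near the background. The count at 6 h in MGE KO was 1 of 7, against 17.1%, and in MGE WT 0 of 7, against 25.3%, with 1 member (Hspa1b) under an unadjusted p of 0.05. The median change of the 7 members at 1 h was 0.42 in CTX KO and 0.33 in CTX WT, beside -0.02 and -0.01 over all tested genes. In both the median member was Hspa1a, at levels below the array medians and not shown to be above background, so no shift of the set is read from it. At 6 h it was 0.17 in CTX KO and 0.14 in CTX WT, beside -0.11 and -0.10, and -0.15 in MGE KO and -0.13 in MGE WT, beside -0.07 and -0.05. The comparisons at 1 and 6 h share their 0 h arrays.

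**Figure D3:**
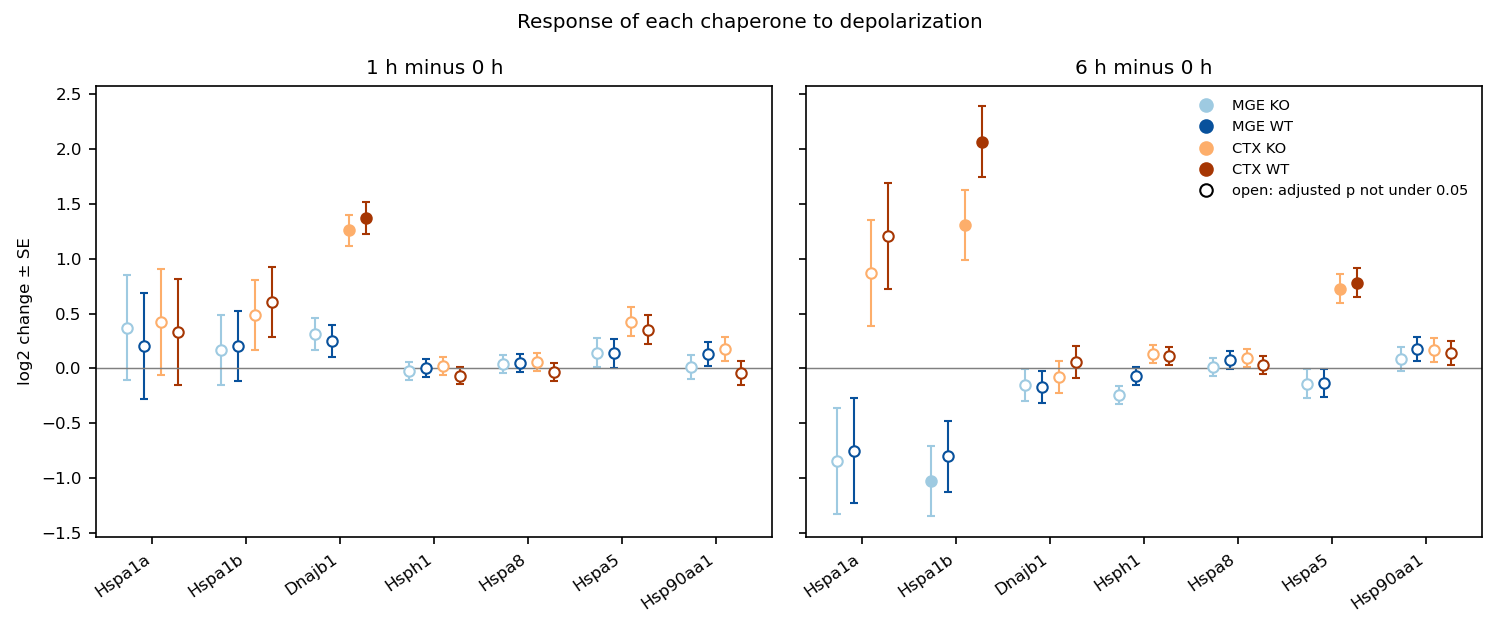
Log2 change ± SE (y axis) of each of the 7 genes at 1 h (left) and 6 h (right) against 0 h, in MGE KO, MGE WT, CTX KO and CTX WT. Filled points have an adjusted p under 0.05. Dnajb1 stands out at 1 h in CTX, and at 6 h Hspa1b is above 0 in both CTX genotypes and below 0 in both MGE genotypes.

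From 1 to 6 h, 1 of 7 members was called in CTX KO (30.2% of all genes) and 3 of 7 in CTX WT (29.8%). Dnajb1 fell by 1.34 in CTX KO and by 1.32 in CTX WT on the main probe set, while the second gave -0.34 ± 0.24 and -0.33 ± 0.24, not called (adjusted p = 0.33 and 0.35). In CTX WT, Hspa1b rose by 1.46 ± 0.32 (adjusted p = 0.0032) and Hspa5 by 0.43 ± 0.13 (adjusted p = 0.023). The Hspa5 step was lost on leaving out CTX WT 6 h repeat 2 (0.23) or the second array at 1 h (0.29). In MGE KO 2 of 7 were called over the same step (12.3% of all genes), Hspa1b at -1.19 and Dnajb1 at -0.47, and both calls were lost without any 1 of the 4 arrays, with changes of -1.40 to -0.99 and -0.55 to -0.39. In MGE WT limma called 0 of 7 (12.8%), with Hspa1b at -1.01 and Dnajb1 at -0.42 both under an unadjusted p of 0.05.

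Averaged over the 4 kinds of culture, 2 of 7 members were called at 1 h (4.77% of all genes) and 2 of 7 at 6 h (53.6%). At 1 h these were Dnajb1 (0.80 ± 0.07) and Hspa5 (0.27 ± 0.07, adjusted p = 0.028), and the Hspa5 call was lost on leaving out any 1 of 8 of the 16 arrays. At 6 h they were Hspa5 (0.31 ± 0.07) and Hsp90aa1 (0.14 ± 0.05, adjusted p = 0.036), and the Hsp90aa1 call was lost on leaving out any 1 of 12 of the 16 arrays, at changes of 0.12 to 0.15, and with quantile (0.10) or cyclic loess (0.11) normalization. Hspa1b, at 0.39 on the main probe set, was not called in this average of opposite courses. It was called there with quantile (0.39) or cyclic loess (0.46) normalization. Its other 2 probe sets gave 0.84 and 0.92, both called, though both lay below the array medians on all MGE arrays.

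The difference between the cultures was tested directly as the response in MGE minus the response in CTX. At 6 h 2 of 7 members responded differently in WT (10.9% of all genes) and 2 of 7 in KO (7.34%). The comparison in KO was added after the values were seen. Hspa1b differed by -2.87 ± 0.45 in WT (adjusted p = 0.0017) and -2.34 ± 0.45 in KO (adjusted p = 0.0067). Hspa5 differed by -0.91 ± 0.19 in WT (adjusted p = 0.0073) and -0.86 ± 0.19 in KO (adjusted p = 0.011). Of these 4 calls, only Hspa5 in KO was lost on leaving out an array, which happened with MGE KO 6 h repeat 2, CTX KO 0 h repeat 1 or CTX KO 6 h repeat 2 (-0.81 to -0.78, adjusted p of 0.051 to 0.055). At 1 h limma called 0 of 7 in WT and 0 of 7 in KO (0.0162% of all genes in each), with 1 member, Dnajb1, under an unadjusted p of 0.05 in each. Dnajb1 differed at 1 h by -1.12 ± 0.20 in WT (adjusted p = 0.16) and -0.94 ± 0.20 in KO (adjusted p = 0.47). In WT it passed without MGE WT 0 h repeat 1 (-1.23, adjusted p = 0.024).

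The other probe sets gave further differences at 6 h. The second Dnajb1 probe set differed by -1.84 ± 0.34 in WT and -1.61 ± 0.34 in KO, and the second Hsph1 probe set by -0.90 ± 0.18 and -0.95 ± 0.18, all 4 called without any 1 array. The faint Hspa8 probe set differed by -1.89 ± 0.44 in WT (adjusted p = 0.015, lost if either MGE WT 6 h repeat 1 or the second CTX WT array at 0 h was left out) and by -1.35 in KO (adjusted p = 0.084). These cultures differ in cell make-up as well as in origin. The mean log2 level of 7 excitatory markers was 5.87 to 6.65 on MGE arrays and 11.18 to 11.54 on CTX arrays, and of 10 interneuron markers 11.48 to 12.10 on MGE arrays and 9.28 to 10.12 on CTX arrays. Which cells within a culture changed cannot be told apart from these bulk values, nor can fewer cells of a type from less RNA per cell.

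Resting levels also differed. In silenced WT cultures 3 of 7 members were called between MGE and CTX, against 64.2% of all genes. Dnajb1 was higher in MGE (12.20 and 12.41) than in CTX (11.80 and 11.75), by 0.54 ± 0.14 (adjusted p = 0.0051), while its second probe set gave 0.49 ± 0.24 (adjusted p = 0.088). Hsph1 was lower in MGE (13.40 and 13.32) than in CTX (13.74 and 13.85), by -0.43 ± 0.08 (adjusted p = 0.00043), and its second probe set by -1.33 ± 0.12. Hsp90aa1 had 13.24 and 13.05 in MGE, against 13.38 and 13.48 in CTX, a difference of -0.29 ± 0.11 (adjusted p = 0.031). The other 2 bright Hsp90aa1 probe sets gave -0.16 and -0.14, not called (adjusted p = 0.11 and 0.17). MGE WT at 0 h is the group whose repeats agreed least, with 1507 genes over 2-fold apart. Without its repeat 2 the Dnajb1 difference was 0.43 (adjusted p = 0.057) and the Hsp90aa1 difference -0.19, and without CTX WT 0 h repeat 2 the Hsp90aa1 difference was -0.24, none of them called. With cyclic loess normalization it was -0.22, also not called. Hspa1b differed by 0.72 on the main probe set, which was not called, and the faintest one averaged 4.44 in MGE WT and 6.26 in CTX WT, both below the array median, so no difference is read from it.

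Npas4 itself checked the genotype labels. It had 6.80 and 6.85 in CTX KO at 1 h, against 12.03 and 11.77 in CTX WT, and 7.35 and 7.0 in MGE KO, against 12.04 and 11.20 in MGE WT. The activity gene Fos rose by 5.56 in MGE KO and 6.24 in MGE WT, and by 5.93 in CTX KO and 5.69 in CTX WT, at 1 h. Among the chaperones, limma called 0 of 7 between KO and WT at each of the 3 times in MGE and in CTX, with 0 under an unadjusted p of 0.05 in each of these 6 comparisons. Across all genes the share called was 0%, 0.0242% and 0.0323% of all genes at 0, 1 and 6 h in MGE, and 0%, 0.00808% and 0.0485% in CTX. In CTX at 0 and 1 h the number called stayed the same whichever array was left out. It rose most in MGE at 0 h and in CTX at 6 h, in fits that leave a group with a single array and no spread of its own. Without MGE WT 0 h repeat 1, 3878 of 12378 genes were called at 0 h in MGE, 3205 averaged over the 6 conditions and 693 for the MGE response at 6 h, with 0 of the 7 members among them. Without CTX WT 6 h repeat 1, 129 genes were called at 6 h in CTX, Hspa1a among them. Averaged over the 6 conditions 0 of 7 were called and 0 were under an unadjusted p of 0.05, against 0.0727% of all genes. None of the 7 was called in the 4 tests of whether the KO response differed from the WT response, with 0 under an unadjusted p of 0.05, against 0.00808% of all genes at 1 h in both cultures and at 6 h in CTX, and 0% at 6 h in MGE.

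The intervals show what such tests could have missed. Averaged over the 6 conditions, KO minus WT was -0.05 for Dnajb1 (95% interval -0.18 to 0.08), -0.06 for Hspa5 (-0.18 to 0.05), 0.02 for Hsph1 (-0.05 to 0.09), 0.03 for Hspa8 (-0.04 to 0.10), 0.06 for Hsp90aa1 (-0.04 to 0.15), 0.03 for Hspa1b (-0.25 to 0.31) and -0.16 for Hspa1a (-0.58 to 0.26). In CTX at 6 h the difference was -0.56 for Hspa1b (-1.24 to 0.13) and -0.58 for Hspa1a (-1.61 to 0.45), with arrays that overlapped. A lower level in KO by 1 on the log2 scale is within both intervals. Leaving out CTX WT 6 h repeat 1 made the Hspa1a difference -1.65 (adjusted p = 0.042), a value that rests on the single WT array left. The difference between the CTX responses at 6 h was -0.76 for Hspa1b (-1.73 to 0.21).

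Across the 12 group means the members fell into sets. Hspa1a and Hspa1b ran together (r = 0.93), as did Hspa1b and Hspa5 (r = 0.88), while Hspa8 ran with Hsp90aa1 (r = 0.96) and Hsph1 (r = 0.87). Dnajb1 had no such partner on its main probe set, with r between -0.14 and 0.09 against the other 6. Its second probe set, which stayed high at 6 h in CTX, was not part of these correlations, so the lack of a partner may depend on the probe set. These correlations over 12 means share arrays and the contrast of 2 cell types, and are given as a description. Of all tested genes, those most like Hspa1b were Taf13 (r = 0.94), Hspa1a and Nppc (0.91), and those most like Hspa1a were Hspa1b, Klhdc10 (0.92) and Zmym5 (0.91). Dnajb1 was followed most closely by Mcl1 (0.93), Mfsd10 (0.88) and Rassf1 (0.85), and Hspa5 by Lrrc34 (0.96), Ubald1 (0.95) and Mss51 (0.94). For Hsph1 the closest were Entpd5, Kpna1 and Gtf2e2 (each 0.99), for Hspa8 Acly (0.99), Npm1 (0.98) and Atp7a (0.97), and for Hsp90aa1 Hnrnpk (0.98), Hnrnpa2b1 (0.97) and Bdp1 (0.96).

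Among 27 other cytosolic chaperones and co-chaperones that were tested, limma called 0 at 1 h in each of the 4 kinds of culture, with 0 in MGE KO and 2 in each of MGE WT, CTX KO and CTX WT under an unadjusted p of 0.05. Of all genes 0.444% to 1.1% were called at 1 h in these cultures. In the average over the 4 kinds of culture at 1 h, Dnajb4 (0.60 ± 0.13) and Dnaja1 (0.20 ± 0.04) were called higher by limma (adjusted p = 0.011 and 0.0068). There 4.77% of all genes were called. At 6 h 5 rose and 1 fell in CTX KO, and 5 rose and 2 fell in CTX WT, where 36.2% and 35.2% of all genes were called. The median changes were 0.05 and 0.13 beside the -0.11 and -0.10 of all genes. Hspb8, a small heat shock protein of chaperone-assisted autophagy, rose by 2.51 ± 0.47 in CTX KO and 2.44 ± 0.47 in CTX WT. Dnajb4, an Hsp40 close to Dnajb1, rose by 1.40 ± 0.26 and 1.65 ± 0.26, and Hspa2, another Hsp70, by 1.44 ± 0.33 and 1.62 ± 0.33. These 3 rises were called whichever array was left out. In MGE 1 rose and 1 fell in KO, and 3 rose and 1 fell in WT, against 17.1% and 25.3% of all genes called. There Dnajb4 rose by 1.10 ± 0.26 in WT (lost without MGE WT 0 h repeat 2 or MGE WT 6 h repeat 1, at 0.58 at the lowest), and Fkbp5, an Hsp90 co-chaperone, fell by 1.03 in KO and by 1.12 in WT.

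The heat shock factor list gave 2 tested genes, Hsf2, a factor that binds heat shock elements, and Hsbp1, a small protein that binds Hsf1. Hsf1 itself and Hsf4, also on the list, were not among the tested genes, so nothing is said of them. Hsf2 averaged 8.17 in CTX KO and 8.11 in CTX WT at 6 h, against 6.75 in CTX KO and 6.54 in CTX WT at 0 h, which are below the array median and not shown to be above background. It was called higher at 6 h, and the size of the change is uncertain, at 1.42 ± 0.37 in CTX KO (adjusted p = 0.0081) and 1.57 ± 0.37 in CTX WT (adjusted p = 0.0044). The CTX KO call was lost without CTX KO 0 h repeat 1 (adjusted p = 0.087), and the CTX WT call without CTX WT 6 h repeat 1 (0.84, adjusted p = 0.066). In MGE the Hsf2 group means at 0 and 6 h lay between 3.59 and 3.83, far below the array median. Hsbp1 was not called in any of the 4.

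Of 21 tested genes of the ER list, 3 rose and 1 fell at 6 h in CTX KO, 3 rose and 2 fell in CTX WT, and 1 rose and 1 fell in each MGE genotype. Of all genes 36.2% and 35.2% were called at 6 h in CTX KO and CTX WT, and 17.1% and 25.3% in MGE KO and MGE WT. Herpud1, which helps remove misfolded proteins from the ER, rose in all 4, by 1.37 ± 0.24 in MGE KO, 1.67 ± 0.24 in MGE WT, 1.80 ± 0.24 in CTX KO and 1.42 ± 0.24 in CTX WT. It was also the 1 gene of this list called at 1 h in a single kind of culture (1.22 ± 0.24 in CTX WT, adjusted p = 0.025), a call lost without any of 3 arrays. Atf6, a sensor of the unfolded protein response, rose by 0.67 ± 0.13 in CTX KO and 0.55 ± 0.13 in CTX WT, and Sel1l, an adaptor of ER-associated degradation, fell by 0.50 and by 0.52. Creld2, an ER stress-inducible protein, fell by 0.82 in MGE KO and by 0.68 in MGE WT, each call lost without either of 2 arrays. In the average over the 4 kinds of culture at 1 h, Herpud1 (0.94 ± 0.12) and Dnajb9 (0.47 ± 0.11) were called higher by limma (adjusted p = 0.00018 and 0.020), with 4.77% of all genes called.

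The mitochondrial chaperone list held 9 tested genes, among them Clpp and Lonp1, which encode protease components. Of these 9, 1 rose and 2 fell at 6 h in CTX KO and in CTX WT. In MGE KO 0 rose and 2 fell, and in MGE WT 1 rose and 2 fell. Those that fell included Clpp in CTX KO (-0.52) and CTX WT (-0.64) and Lonp1 in MGE WT (-0.66). The shares of all genes called at 6 h were 36.2% in CTX KO, 35.2% in CTX WT, 17.1% in MGE KO and 25.3% in MGE WT. Hspa9, the mitochondrial Hsp70, rose by 0.50 ± 0.09 in CTX KO, 0.47 ± 0.09 in CTX WT and 0.35 ± 0.09 in MGE WT, the MGE WT call lost without MGE WT 0 h repeat 2 or MGE WT 6 h repeat 1. Dnaja3, its Hsp40 partner, fell by 1.22 in CTX KO and by 1.25 in CTX WT, and by 0.60 in MGE KO (adjusted p = 0.014, lost without any 1 of 4 arrays). Trap1, the mitochondrial Hsp90, fell by 0.67 in MGE KO and by 0.84 in MGE WT, calls lost without any of 4 arrays in KO and either of 2 in WT. The 8 subunits of the cytosolic chaperonin TRiC gave 0 calls by limma at 1 h or 6 h in any of the 4 kinds of culture, with 1 subunit under an unadjusted p of 0.05 at 6 h in MGE KO and 1 in MGE WT. Beside this, 0.444% to 1.1% of all genes were called at 1 h, and the shares given above at 6 h.

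**Figure D4:**
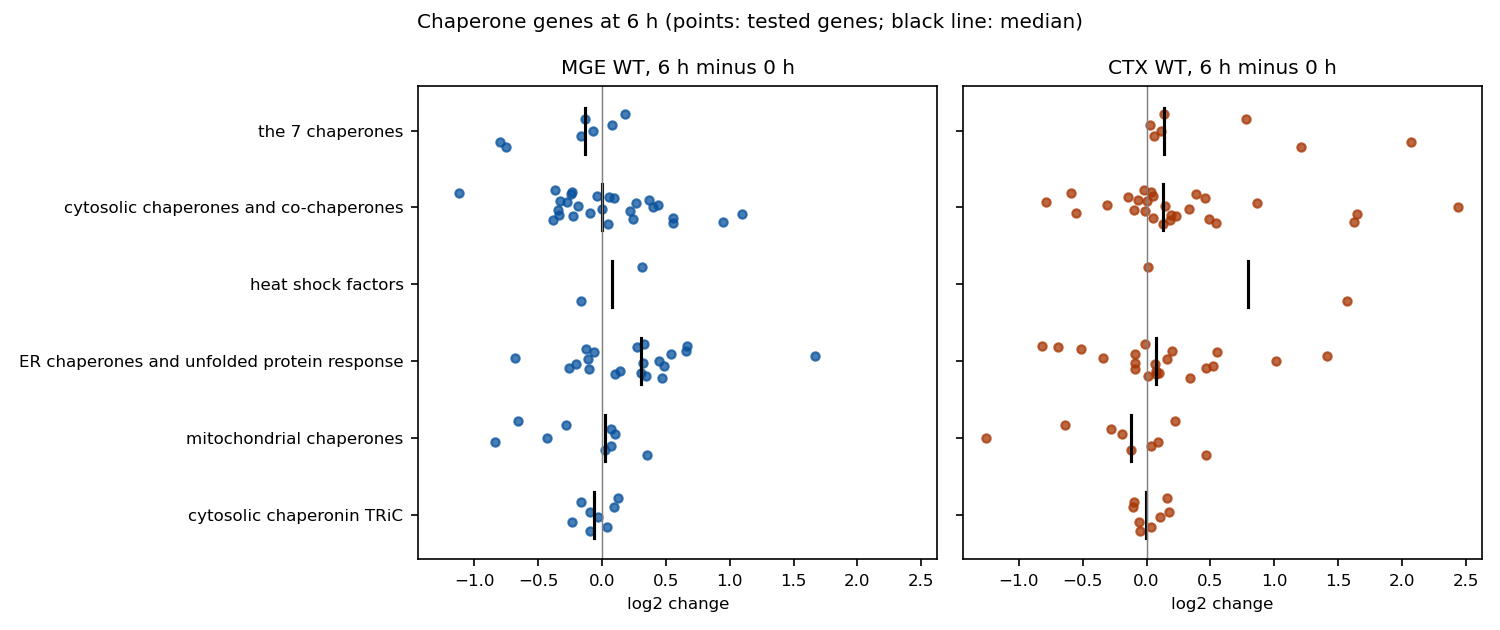
Log2 change at 6 h against 0 h (x axis) in MGE WT (left) and CTX WT (right), with 1 point per tested gene of the 7 members and each other chaperone list and a black line at the median of the list. In CTX WT the points furthest right are Hspb8 (2.44) and Hspa1b (2.07), and Dnaja3 (-1.25) lies furthest left.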

How the data were processed

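RNA of 24 samples of cultured neurons was amplified from 100 ng with NuGEN Ovation V2 and hybridized to Affymetrix mouse 430 2.0 arrays, per the labels' protocols. The authors deposited 1 linear intensity per probe set and array. The submitters' processing notes name RMA, which corrects background, normalizes arrays to a common distribution and summarizes probes; no version is given, nor whether both cell types were normalized together, and such normalization hides a change common to most transcripts. Array medians were 115 to 121 intensity units.

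Intensities were converted to log2 with no further scaling. Of 45101 probe sets, 34958 had 1 gene symbol in GEO's platform annotation, 932 several and 9211 none. Each of 18194 genes was represented by its brightest probe set on average, and tested if above the array median on at least 2 arrays, which left 12378. Levels near that median are not shown to be above background. Levels of different probe sets were compared only to pick and rank probe sets by brightness, not as amounts of RNA. Groups came from the labels. limma 3.58.1 (R 4.3.3) fitted 12 group means to 24 arrays, with 12 residual and 2.408 prior degrees of freedom; the number of arrays limits the precision. Two-sided p-values were Benjamini-Hochberg adjusted over 12378 genes in each of 30 comparisons, and called under 0.05. The fit was tested on simulated data.

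Members and lists were chosen with earlier results of these data known, and the MGE against CTX responses in KO were added after the values were seen. The text names the members, up to 4 genes per list and comparison (those called with the largest changes, or else the 2 largest), Npas4, Fos, and the 3 genes most correlated with each member over 12 group means. Promoters came from RefSeq (GRCm38.p6). Alternatives were the mean over probe sets, another probe set, no filter, quantile or cyclic loess normalization, a replicate block, an intensity trend in the variance, each cell type alone, and each array left out.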

Additional observations from a re-analysis of the deposited data

Results flagged for a closer look

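Of the tests of whether a response differed between cultures or genotypes, 4 involving these genes passed at an adjusted p under 0.05, all at 6 h and all between MGE and CTX. The tests in KO were added after the values were seen. The Hspa1b response in MGE minus that in CTX was -2.87 in WT and -2.34 in KO. For Hspa5 the same difference was -0.91 in WT and -0.86 in KO. Hspa1b rose in CTX KO and CTX WT, while in MGE its change was -1.03 in KO, a call lost without any 1 of its 4 arrays, and -0.80 in WT, not called. Hspa5 rose in CTX and its changes in MGE were -0.14 in KO and -0.13 in WT, not called. In WT the Hspa1b difference ranged from -3.36 to -2.38 on leaving out each array.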

How the results depend on the processing

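The calls of Dnajb1 at 1 h and of Hspa5 and Hspa1b at 6 h in CTX WT and CTX KO kept their direction under every alternative run, and were lost only for Hspa1b in CTX KO without 1 array. With the mean over probe sets, 6 of 7 members were called at 6 h in CTX KO and in CTX WT (2 each in the main analysis) against 39.7% and 38.3% of all genes, 5 averaged over cultures at 6 h (2) against 58.1%, 5 for the WT difference in response at 6 h (2) against 11.1%, 2 in CTX KO from 1 to 6 h (1) and 1 in MGE KO from 1 to 6 h (2). Other changes under it included the gain of Hsph1 in CTX WT from 1 to 6 h, in the KO difference at 6 h and in MGE KO at 6 h, and the loss of Hspa1b in MGE KO at 6 h and of Hsp90aa1 at rest. In MGE KO at 6 h the count was 0 with no filter and 2 with a variance trend (1), and from 1 to 6 h 1 with no filter and 1 with cyclic loess (2). In MGE WT from 1 to 6 h it was 1 with the replicate block, 1 with the trend and 2 with MGE alone (0), in CTX KO from 1 to 6 h 2 with cyclic loess and 2 with the replicate block (1), and for WT MGE against CTX at 0 h 5 with quantile normalization (3). Leaving out arrays gave 0 in MGE KO at 6 h and from 1 to 6 h, 1 to 2 in CTX KO at 6 h and from 1 to 6 h, 1 to 2 averaged at 1 h, 1 to 3 averaged at 6 h, 0 to 1 for CTX KO against WT at 6 h, 1 to 3 for WT MGE against CTX at 0 h, 0 to 1 for the WT difference in response at 1 h and 1 to 2 for the KO difference at 6 h. Signs turned for Dnajb1 in CTX KO at 6 h (1.09 with the mean, 2.26 on the second probe set) and averaged at 6 h (0.66 and 1.41), for Hspa8 in CTX WT at 1 h (1.54 on the faint probe set) and in the WT difference at 6 h (-0.47 and -1.89), and for WT MGE against CTX at 0 h for Hspa1b (-1.81) and Hsp90aa1 (0.16, not called). The cause was not tested. With no filter more genes are tested. The share of all genes called also moved with the array left out, and it is not given for most of these settings. A member count that moved is therefore not read as a change of the members alone. The labels give the repeats only a number, with no litter or batch, and the fit was not paired, although same-numbered arrays deviated together with r of 0.11 to 0.71 in all 15 pairs of CTX groups and of -0.23 to 0.86 in MGE, above 0.1 in 13 of 15. The replicate block raised the calls over all genes from 107 to 150 at 1 h in CTX WT. Among members it added Hspa1a in CTX WT at 6 h (1.21, adjusted p = 0.024), in the WT difference at 6 h (-1.96, adjusted p = 0.030) and in MGE KO from 1 to 6 h (adjusted p = 0.048). It added Hspa1b averaged at 6 h (0.39), at rest (0.72) and from 1 to 6 h in MGE WT (-1.01) and CTX KO (0.82), and lost no call. Arrays limit the precision to 2 per group, and a signal near the array median, as for Hspa1a, is not shown to be above background.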
